A study of Homo sapiens with 9 samples.

Results

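C/D box small nucleolar RNAs were followed across 9 conditions of HuH-7, an established human hepatocellular carcinoma cell line. They were selected on their measured counts, as the genes whose symbol starts with SNORD and that had at least 10 raw counts summed over the 9 libraries, which gave 69 of the 280 SNORD identifiers in the files and of 63677 gene identifiers in all. Of the other 211 identifiers, 181 had no count in any library. Symbols were available for 52526 of the 63677 identifiers, so C/D box snoRNAs without a symbol match are outside the 280. None of the listed snoRNAs of SNHG5 and SNHG29, and only some of those of GAS5 and SNHG1, were found by symbol. Each condition was 1 culture sequenced as 1 library: an untreated control, 10 mM acetaminophen, exosomes that had been isolated from serum (1 ml), both of these together, 2 mM caffeine, and the same caffeine plus 10 mM acetaminophen. The other 3 received arsenic, at a dose of 5 µM, at 15 µM, or at 5 µM in combination with 5 µM copper. How long the cells were exposed, and whose serum was used, is not stated in the labels. All cultures are of the same cancer line, and none of the conditions has a second library, so a difference between 2 libraries has no replicate check.

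C/D box snoRNAs are short nucleolar RNAs with a C box near the 5′ end and a D box near the 3′ end. With fibrillarin (FBL), NOP56, NOP58 and SNU13 they form particles that add methyl groups to the ribose of ribosomal RNA and of the U6 spliceosomal RNA, at positions set by base pairing next to the D box. Most human C/D box snoRNAs are cut from the introns of host genes, many of which encode ribosomal proteins or translation factors. A few, such as U3 (SNORD3A), U13 (SNORD13), U14 (the SNORD14 genes) and U8 (SNORD118), act in the processing or acetylation of ribosomal RNA, and U3 and U13 are transcribed from their own promoters.

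The sequences of 6 genes are shown because large differences and the exceptions below fall on them. They are GENCODE 29 transcripts (GRCh38) matched by gene identifier, written 5′ to 3′ as DNA, with the first C box (TGATGA) and the last D box (CTGA) found within 25 bases of the ends in capitals.
SNORD7: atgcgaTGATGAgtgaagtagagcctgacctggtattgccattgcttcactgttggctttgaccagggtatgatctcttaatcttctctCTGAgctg
SNORD94: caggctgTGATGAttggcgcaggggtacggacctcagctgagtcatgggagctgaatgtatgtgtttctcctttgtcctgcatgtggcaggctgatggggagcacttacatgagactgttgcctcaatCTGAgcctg
SNORD17: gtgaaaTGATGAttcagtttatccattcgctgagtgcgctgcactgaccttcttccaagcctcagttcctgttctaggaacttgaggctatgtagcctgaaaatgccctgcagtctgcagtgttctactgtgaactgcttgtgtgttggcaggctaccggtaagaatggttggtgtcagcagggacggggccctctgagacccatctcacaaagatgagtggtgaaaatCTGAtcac
SNORD83A: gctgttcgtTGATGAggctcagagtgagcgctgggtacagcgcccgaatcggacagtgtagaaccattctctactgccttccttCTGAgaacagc
SNORD104: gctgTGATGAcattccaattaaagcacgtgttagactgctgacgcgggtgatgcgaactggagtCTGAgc
SNORD100: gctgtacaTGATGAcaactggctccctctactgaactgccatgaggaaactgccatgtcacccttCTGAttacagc
SNORD7 and SNORD94 guide the methylation of U6. SNORD15B, SNORD17, SNORD104 and SNORD46 guide that of 28S ribosomal RNA, and SNORD100 that of 18S ribosomal RNA. SNORD83A has no established ribosomal RNA target. In GENCODE 29, SNORD7 lies in LINC02001 on chromosome 17, SNORD94 in PTCD3 on chromosome 2, SNORD15B in RPS3 on chromosome 11 and SNORD17 in SNX5 on chromosome 20. SNORD83A lies in RPL3 on chromosome 22, SNORD104 in SNHG25 on chromosome 17 and SNORD100 in RPS12 on chromosome 6. Both boxes, spelled exactly so, were found on the transcript strand of 46 of the 69 genes (66.7%), of 134 of the 211 SNORD identifiers under 10 counts (63.5%) and of 1 of 73 H/ACA box snoRNA genes with at least 10 counts (1.37%).

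The libraries held 658725 (acetaminophen with exosomes) to 8227906 (caffeine) gene counts, and the control held 951816. A gene with no count in a library could have been present at up to 0.352 CPM (caffeine) to 3.83 CPM (acetaminophen with exosomes), the level of 3 counts. Levels are CPM, read counts divided by the TMM-scaled library size. The 10 hepatocyte markers examined had counts in every library (summed level 9758 to 28476 CPM), whereas 6 blood cell markers summed to at most 2.55 CPM, with PPBP, PF4 and HBA2 at 0, and 4 fibroblast and endothelial markers to 6.38 to 19.3 CPM, with PECAM1 at 0. Shares of counts and ratios between libraries cannot tell fewer cells of a type from less RNA per cell. Intervals cover counting error only, since each condition had a single library. The reads are PCR reads without molecular identifiers, so copies of a molecule count separately and the intervals may be too narrow.

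C/D box snoRNAs took a small part of the counts in most libraries and 19.1% of them in the arsenic 5 µM library. Their share of the counts on genes was 3.09% in the control (Wilson 95% interval 3.05 to 3.12), 8.20% with acetaminophen, 2.39% with exosomes and 2.15% with acetaminophen and exosomes. It was 5.82% with caffeine, 4.18% with acetaminophen and caffeine, 19.1% with arsenic at 5 µM (19.09 to 19.17), 2.08% with arsenic at 15 µM and 3.74% with arsenic and copper. The arsenic 5 µM, acetaminophen and caffeine libraries thus lay above the others. H/ACA box snoRNAs, the class that guides pseudouridylation, took 1.74% in the control, 3.22% with acetaminophen, 2.49% with caffeine and 16.3% with arsenic at 5 µM.

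**Figure D1:**
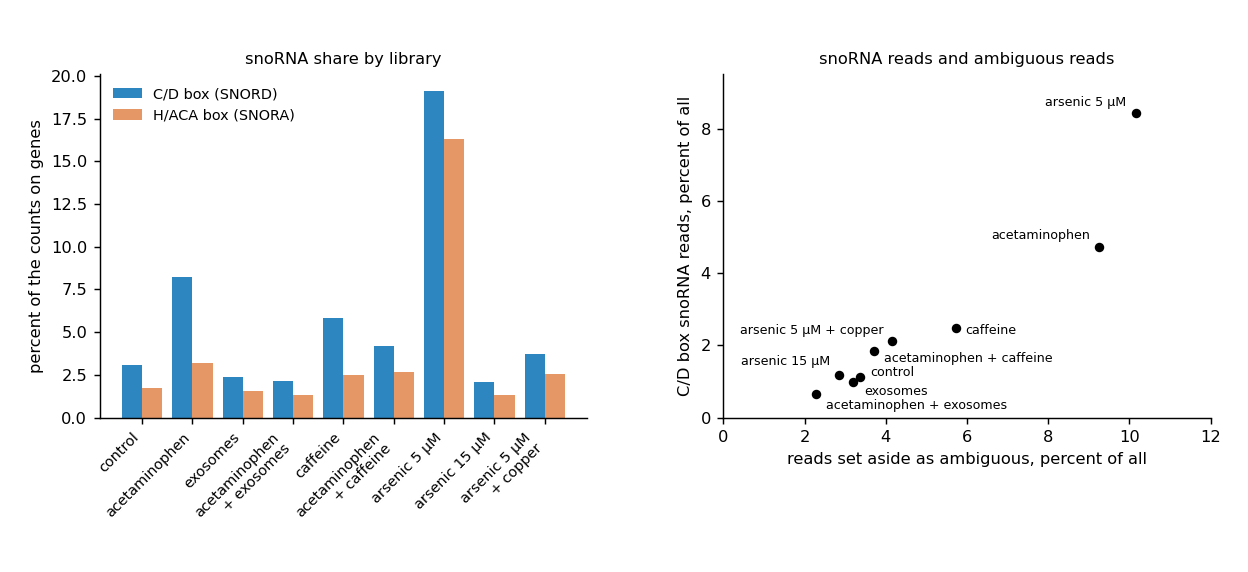
Left, percent of the counts on genes taken by C/D box (SNORD) and H/ACA box (SNORA) snoRNAs in each library, 1 bar per library. Right, percent of all reads on C/D box snoRNAs against the percent set aside by the counter as ambiguous, 1 point per library; the arsenic 5 µM library (19.1% of gene counts) and the acetaminophen library (8.20%) are highest on both.

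The counter set aside as ambiguous those reads that fell on more than 1 gene, and their share moved with the snoRNA reads. It was 3.36% of all reads in the control, 9.25% with acetaminophen, 5.74% with caffeine and 10.2% with arsenic at 5 µM. Across the 9 libraries the C/D box share of all reads and the ambiguous share had a Pearson r of 0.946 (exact two-sided permutation p = 2.76e-05, adjusted over both coefficients 5.51e-05) and a Spearman rho of 0.95 (exact permutation p = 0.000353). Without the arsenic 5 µM and acetaminophen libraries, Pearson's r was 0.923 and Spearman's rho 0.893 over 7 libraries. Both shares have all reads as their denominator. The part of ambiguous reads in the snoRNA levels was not tested.

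U3, the most counted C/D box snoRNA, behaved differently from the short guides. SNORD3A was at 12294 CPM in the control, 11037 with acetaminophen, 7109 with exosomes, 6767 with acetaminophen and exosomes, 5306 with caffeine, 22504 with acetaminophen and caffeine, 112699 with arsenic at 5 µM, 13453 with arsenic at 15 µM and 17258 with arsenic and copper. It was therefore highest with arsenic at 5 µM and lowest with caffeine. Its share of all C/D box counts ran from 9.44% (caffeine) and 15.0% (acetaminophen) to 60.2% (arsenic at 15 µM), with 43.2% in the control. U3 has near-identical gene copies, so the split of reads between SNORD3A, SNORD3B-1, SNORD3C and SNORD3H is uncertain, and reads placed on several sites were not counted for genes (23.0% to 53.3% of all reads). SNORD3C, at 4.46 to 86.99 CPM, had its highest and lowest levels in the same 2 libraries as SNORD3A.

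U13 followed another course. SNORD13, which guides the acetylation of 18S ribosomal RNA, was at 2710 CPM in the control, 7178 with acetaminophen, 3634 with exosomes, 1775 with acetaminophen and exosomes, 10002 with caffeine, 4599 with acetaminophen and caffeine, 62707 with arsenic at 5 µM, 2451 with arsenic at 15 µM and 8378 with arsenic and copper. Unlike SNORD3A it was higher with caffeine than in the control (ratio 3.69, counting interval 3.55 to 3.83, against 0.432, 0.423 to 0.440, for SNORD3A). The U14 genes SNORD14A and SNORD14E were 3.27 times (2.70 to 4.02) and 11.4 times (9.54 to 13.8) higher with arsenic at 5 µM than in the control. Of the list of 14 processing snoRNAs, 11 were found by symbol and 6 had at least 10 counts. U8 (SNORD118) had fewer than 10. Exons of another gene on the same strand overlapped 4 of the 11, and values of such genes are uncertain.

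With arsenic at 5 µM most C/D box snoRNAs were higher than in the control. A gene was counted as higher or lower when the ratio of the 2 libraries was at least 2 (with 0.5 prior counts) and its exact 95% counting interval excluded 1. By that measure 55 of 69 were higher and 0 lower, where 16.1% of all 18795 genes with at least 10 counts were higher and 14.4% lower. The median log2 ratio was 2.46, against 0 over all genes. The H/ACA genes had a median of 2.74. Scaled by total gene counts, which lowers the median of all genes by 0.45 on the log2 scale, 46 were higher and 1 lower. Of all 18795 genes, 1315 were then higher and 4873 lower.

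SNORD7, SNORD94 and SNORD15B differed most between these libraries. SNORD7 was at 32.9 CPM in the control, 2814 with acetaminophen, 58.4 with exosomes, 23.0 with acetaminophen and exosomes, 391 with caffeine, 71.2 with acetaminophen and caffeine, 4289 with arsenic at 5 µM, 24.1 with arsenic at 15 µM and 202 with arsenic and copper. Arsenic at 5 µM thus gave 129 times the control level (93.2 to 188). SNORD94 was at 20.3 CPM in the control, 115 with acetaminophen, 23.0 with exosomes, 33.2 with acetaminophen and exosomes, 143 with caffeine, 35.5 with acetaminophen and caffeine, 2093 with arsenic at 5 µM, 10.4 with arsenic at 15 µM and 26.4 with arsenic and copper, a ratio of 102 (67.3 to 167) for arsenic at 5 µM. SNORD15B was at 262 CPM in the control, 1944 with acetaminophen, 207 with exosomes, 157 with acetaminophen and exosomes, 386 with caffeine, 564 with acetaminophen and caffeine, 21293 with arsenic at 5 µM, 131 with arsenic at 15 µM and 380.2 with arsenic and copper, a ratio of 81.1 (72.1 to 91.8). In all 3, the arsenic 5 µM library was the highest and far from the other arsenic libraries.

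**Figure D2:**
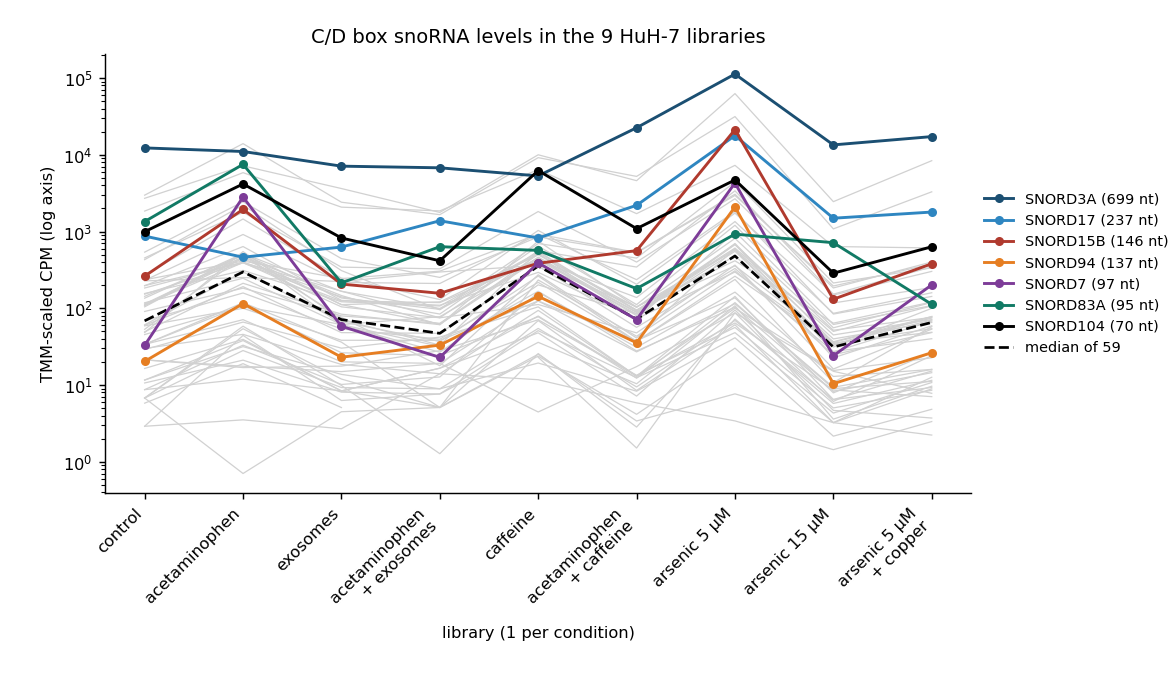
TMM-scaled CPM (log axis) of the 59 C/D box snoRNA genes with at least 100 counts in each library, 1 line per gene; 7 genes are coloured, the dashed line is the median of the 59, and a level of 0 is not drawn. Most lines peak in the acetaminophen, caffeine and arsenic 5 µM libraries, whereas SNORD3A and SNORD17 do not peak with acetaminophen or caffeine.

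The higher arsenic dose gave the opposite picture. Arsenic at 15 µM left 0 of 69 genes higher and 33 lower than the control, where 16.4% of all genes were higher and 13.8% lower, with a median log2 ratio of -1.18 against 0.01 over all genes. Of 73 H/ACA genes, 3 were higher and 20 lower, with a median of -0.64. SNORD14A was 6.78 times lower (4.83 to 9.94), SNORD66 7.25 times lower (4.52 to 12.8) and SNORD99 5.54 times lower (4.36 to 7.17). Directly compared, the 15 µM library had 0 higher and 61 lower than the 5 µM library (19.5% and 17.1% of all genes), led by SNORD94 (197 times lower, 140 to 300), SNORD7 (177, 140 to 230) and SNORD15B (162, 146 to 180). The H/ACA genes were alike, with 1 of 73 higher and 67 lower. The median log2 ratio was -3.81 for the C/D box genes and -3.49 for the H/ACA genes.

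Copper was added to arsenic at 5 µM in 1 library, and the snoRNAs there were near the control. Against the control, 6 genes were higher and 11 lower (9.06% and 6.75% of all genes). Scaled by DESeq2 size factors, by total gene counts or by TMM from protein-coding genes, 2 were higher and 15 lower. Of all 18795 genes, 1299 were higher and 1548 lower in the first of these scalings. In the second 1465 were higher and 1430 lower, and in the third 1467 and 1430. Among the 6 higher were SNORD7 (6.09 times, 4.34 to 8.95), SNORD13 (3.09, 2.97 to 3.22) and SNORD17 (2.06, 1.91 to 2.21). SNORD17 fell under 2 times in each of those 3 scalings. SNORD83A was 11.95 times lower (10.6 to 13.6) and SNORD100 3.02 times lower (2.83 to 3.23). Against arsenic at 5 µM alone, 0 were higher and 61 lower (16.1% and 13.5% of all genes), with a median log2 ratio of -2.88 against 0 over all genes. The H/ACA genes were alike, with 1 of 73 higher, 67 lower and a median of -2.91.

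Most short guides were higher in the acetaminophen library than in the control, and lower when acetaminophen was added to caffeine. Against the control, 46 genes were higher and 1 lower with acetaminophen (12.7% and 11.8% of all genes), with a median log2 ratio of 1.66 against 0 over all genes and 0.73 over the H/ACA genes. SNORD7 was 84.5 times higher (61.1 to 124), SNORD90 11.2 times (8.51 to 15.4) and SNORD111B 9.04 times (6.91 to 12.2). The 1 lower gene, SNORD105, had 1 count against 7 (ratio 0.155, 0.00231 to 0.809). SNORD46 was at 2979 CPM in the control, 13977 with acetaminophen, 2411 with exosomes, 1659 with acetaminophen and exosomes, 9178 with caffeine, 5231 with acetaminophen and caffeine, 31472 with arsenic at 5 µM, 1083 with arsenic at 15 µM and 3293 with arsenic and copper. It was thus highest with arsenic at 5 µM, acetaminophen and caffeine.

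With caffeine present, acetaminophen came with lower levels. Acetaminophen with caffeine had 4 genes higher and 51 lower than caffeine alone (12.5% and 13.1% of all genes), with a median log2 ratio of -2.19 against -0.04 over all genes. Of 73 H/ACA genes, 3 were higher and 36 lower, with a median of -1.05. SNORD6 was 7.24 times lower (6.64 to 7.92), SNORD69 7.16 times (6.45 to 7.98) and SNORD111 14.6 times (7.57 to 35.7). The higher ones included SNORD3A (4.24 times, 4.20 to 4.29), SNORD3C (3.85, 2.65 to 5.85) and SNORD17 (2.66, 2.59 to 2.75). SNORD104 was at 995 CPM in the control, 4170 with acetaminophen, 825 with exosomes, 416 with acetaminophen and exosomes, 6228 with caffeine, 1091 with acetaminophen and caffeine, 4703 with arsenic at 5 µM, 287 with arsenic at 15 µM and 633 with arsenic and copper. Its level with both agents lay near that of the control. By the rule for library pairs, 40 of the 69 genes were higher with acetaminophen alone and lower when it was added to caffeine, a pattern met by 1.42% of all genes. None met the rule in the same direction in all 3 acetaminophen pairs, although SNORD31B and SNORD3B-1 had ratios above 1 and SNORD62B below 1 in each.

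Caffeine alone had 48 genes higher and 5 lower than the control (11.7% and 7.83% of all genes), with a median log2 ratio of 1.87 against 0.33 over all genes. Of 73 H/ACA genes, 27 were higher and 2 lower, with a median of 0.94. SNORD1B (18.4 times, 9.78 to 40.8), SNORD6 (15.2, 11.6 to 20.5) and SNORD90 (11.4, 8.62 to 15.4) led by the lower bound of the interval. SNORD100 was at 1848 CPM in the control, 5852 with acetaminophen, 2078 with exosomes, 1858 with acetaminophen and exosomes, 6416 with caffeine, 1711 with acetaminophen and caffeine, 7285 with arsenic at 5 µM, 638 with arsenic at 15 µM and 611 with arsenic and copper. The 5 lower genes were SNORD3A, SNORD83A, SNORD3C, SNORD97 (1 count against 5) and SNORD3H (0 counts against 3). SNORD97 takes part in the methylation of a transfer RNA.

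The exosome library was close to the control for most C/D box snoRNAs. Against the control, 0 genes were higher and 1 lower (3.62% and 1.36% of all genes), with a median log2 ratio of -0.24 against 0.15 over all genes. The 1 lower gene was SNORD83A. SNORD83A was at 1349 CPM in the control, 7511 with acetaminophen, 214 with exosomes, 635 with acetaminophen and exosomes, 568 with caffeine, 180.5 with acetaminophen and caffeine, 925 with arsenic at 5 µM, 716 with arsenic at 15 µM and 113 with arsenic and copper, so that it was 6.29 times lower (5.75 to 6.90) with exosomes and, unlike the other genes shown, not higher with arsenic at 5 µM. Acetaminophen with exosomes, against exosomes, had 3 genes higher and 10 lower (4.94% and 5.19% of all genes). Scaled by DESeq2 size factors, 5 were higher and 7 lower, and 1180 and 642 of all 18795 genes. SNORD83A (2.96 times, 2.64 to 3.33) and SNORD17 (2.20, 2.04 to 2.37) were among the 3 higher. SNORD63 (6.82 times lower, 2.70 to 26.5) and SNORD8 (3.24, 2.56 to 4.16) were among the 10 lower.

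In a model of all 9 libraries, no term for a treatment called a C/D box snoRNA. An additive edgeR quasi-likelihood fit with terms for acetaminophen, exosomes, caffeine and arsenic took its spread from departures from additivity (4 residual degrees of freedom) and tested 68 of the 69 genes, all but SNORD42B. At a Benjamini-Hochberg adjusted p under 0.05 over 18237 genes, edgeR called 0 of 68 for acetaminophen (0.0219% of all genes called), 0 for exosomes (0%), 0 for caffeine (0.0823%) and 0 for arsenic (0.494%). At an unadjusted p under 0.05 the counts were 1, 13, 3 and 5 (5.34%, 0.620%, 7.31% and 9.17% of all genes). DESeq2, at an adjusted p under 0.05, called 0, 0, 0 and 1 (0.269%, 0%, 0.280% and 0.932% of all genes). The 13 for exosomes became 0 without the acetaminophen library (0.466% of all genes) and 35 without the control (4.84%). The median log2 fold change of the exosome term was -1.32 with all libraries and 0.291 without the acetaminophen library. The smallest p values were those of SNORD105 for acetaminophen (log2 fold change -1.98 ± 0.86, edgeR adjusted p = 0.775), SNORD83A for exosomes (-3.27 ± 1.02, adjusted p = 1) and SNORD97 for caffeine (-4.11 ± 1.34, adjusted p = 0.353), where ± is the fold change divided by the root of its F statistic. SNORD17 had the smallest for arsenic (3.57 ± 1.08, edgeR adjusted p = 0.143) and was at 873 CPM in the control, 463 with acetaminophen, 628 with exosomes, 1382 with acetaminophen and exosomes, 824 with caffeine, 2196 with acetaminophen and caffeine, 17785 with arsenic at 5 µM, 1492 with arsenic at 15 µM and 1794 with arsenic and copper. The arsenic term depended on the arsenic 5 µM library, without which 20 genes were called, all lower (4.27% of all genes called). It called 2 genes without the arsenic 15 µM library (0.636%) and 1 without either caffeine library (0.762%), all higher. Without the arsenic 5 µM library, 1 gene was also called lower for exosomes (SNORD7, with 0.0165% of all genes called) and 1 for caffeine (SNORD83A, 1.21%).

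Extra terms, chosen after the data were seen, were each added alone to that fit, with 3 residual degrees of freedom. Each marks a single library and fits it exactly, so its p values carry no replicate check. The terms of acetaminophen by caffeine and by exosomes addressed whether those agents combined additively. The copper term set the arsenic and copper library against the other 2 arsenic libraries, and no library had copper alone. For acetaminophen by caffeine, edgeR called 0 of 68 (0% of all genes), while 27 of 68 had an unadjusted p under 0.05 (1.09% of all genes), 61 were negative and the median was -2.72, against -0.01 over all genes. SNORD19C had the smallest p (-4.08 ± 1.43, edgeR adjusted p = 1). Acetaminophen by exosomes called 0 (0% of all genes, 0 of 68 at an unadjusted p under 0.05) and copper called 0 (0%, 18 of 68 at an unadjusted p under 0.05, against 2.35% of all genes, and 65 negative). The term for arsenic at 15 µM, which sets that library against the other 2 arsenic libraries, called 10 of 68, all lower (1.09% of all genes called). They were SNORD94 (-6.66 ± 1.28, edgeR adjusted p = 0.000216), SNORD7 (-6.54 ± 1.43, 0.00217), SNORD15B (-6.37 ± 1.596, 0.0135), SNORD121A, SNORD53B, SNORD111B, SNORD126, SNORD14A, SNORD90 and SNORD66. This count was 0 without the arsenic 5 µM library and 49 without the arsenic and copper library, while the calls over all genes went from 198 to 19 and 767. It was 16 without the control or the acetaminophen library (301 and 305 over all genes), and 2 without either exosome library or either caffeine library (63 to 79).

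Length set apart the few long genes. By annotated length, classes chosen after the values were seen, 52 genes were under 100 nt, 12 were of at least 100 but under 200 nt and 5 were longer (SNORD3A, SNORD3B-1, SNORD3C, SNORD3H and SNORD17). The annotated SNORD3A and SNORD3C genes are longer than the mature U3 RNA. These lengths are gene spans. That of SNORD3C is 581 nt and its transcript 217 nt, and that of SNORD91A 191 nt and its transcript 95 nt. By its transcript SNORD91A would fall under 100 nt. With acetaminophen 35 of 52, 11 of 12 and 0 of 5 were higher than the control, with caffeine 41, 7 and 0, and with arsenic at 5 µM 41, 11 and 3, where 12.7%, 11.7% and 16.1% of all genes were higher. The long class is nearly 1 RNA, since 4 of its 5 genes are U3 copies, of which SNORD3B-1 and SNORD3H had 27 and 14 counts in all. When acetaminophen was added to caffeine, 45 of 52 and 6 of 12 were lower, and 4 of the 5 long ones were higher. Counts on genes under 100 nt were 0.636 times those on SNORD3A in the control, 2.88 with acetaminophen, 0.905 with exosomes, 0.827 with acetaminophen and exosomes, 5.01 with caffeine, 0.263 with acetaminophen and caffeine, 0.345 with arsenic at 5 µM, 0.223 with arsenic at 15 µM and 0.245 with arsenic and copper. The acetaminophen and caffeine libraries were thus rich in short snoRNAs relative to U3, and the arsenic 5 µM library was not. Over the 59 genes with at least 100 counts, which share each library's depth, log length and the log2 ratio had a Pearson r of 0.777 for acetaminophen with caffeine against caffeine and -0.566 for caffeine against control, and Spearman's rho was 0.454 and -0.176. These were the strongest Pearson values of the 10 pairs, and r was -0.217 (rho 0.149) for acetaminophen against control and 0.242 (rho 0.430) for arsenic at 5 µM. GC content was related to the ratio at a rho of 0.395 and -0.432 in the first 2 pairs, and the level at 0.465 and -0.179. Whether the libraries kept short fragments to different degrees was not tested.

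**Figure D3:**
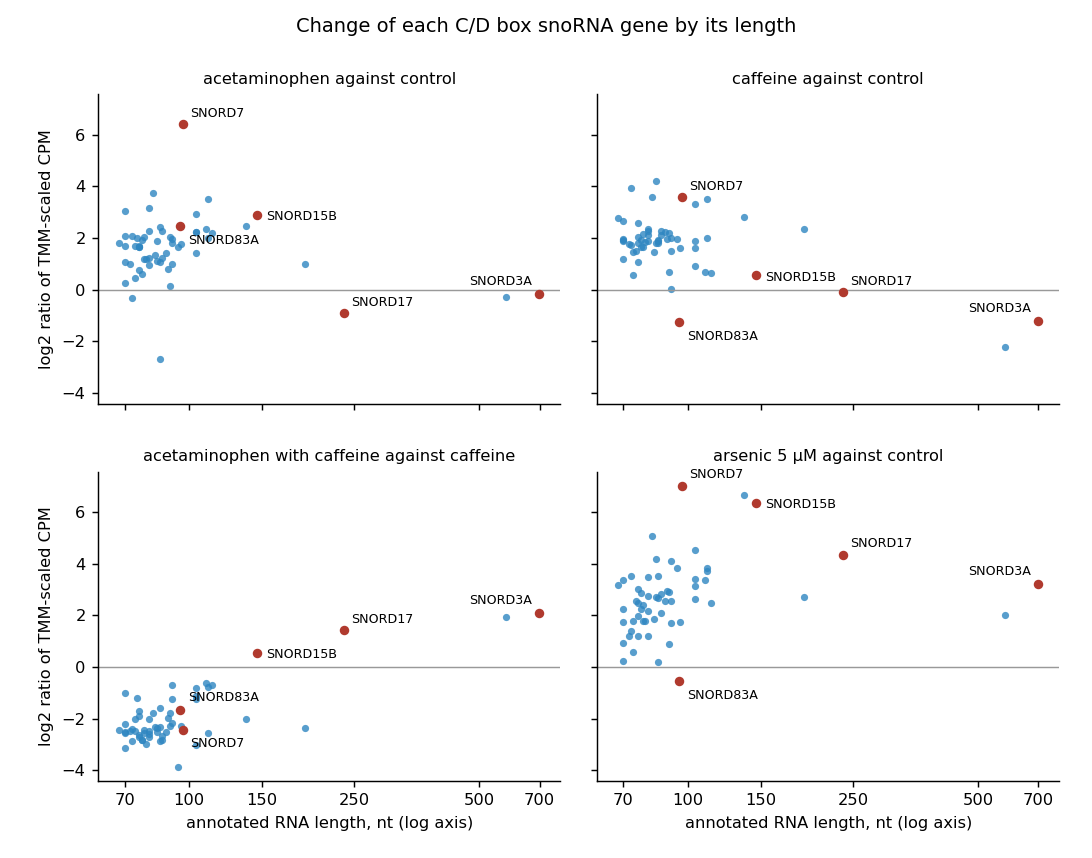
Log2 ratio of TMM-scaled CPM between 2 libraries against annotated gene length (log axis, labelled RNA length) for the 59 C/D box snoRNA genes with at least 100 counts, 1 point per gene, in 4 library pairs. The 5 labelled genes are in red. The short genes lie mostly above 0 with acetaminophen, caffeine and arsenic at 5 µM and below 0 when acetaminophen is added to caffeine, where SNORD17 and SNORD3A lie above 0.

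Most genes shared 1 profile over the 9 libraries. The log2 level (0.5 CPM added) of 36 of the 59 genes correlated at r of 0.9 or more with the median profile, which includes them, and the median r was 0.926. Of the others, 6 had r under 0.7: SNORD38A (0.248), SNORD3C (0.289), SNORD105 (0.304), SNORD17 (0.322), SNORD3A (0.375) and SNORD83A (0.438). The closest was SNORD12B (0.993), then SNORD11 (0.987) and SNORD11B (0.987). Of the 69 genes, 44 had their highest level with arsenic at 5 µM, 12 with caffeine and 9 with acetaminophen, and 41 had their lowest with arsenic at 15 µM. SNORD31B, SNORD42B and SNORD62A met the rule in none of the 10 pairs, and each had at most 20 counts in all.

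Host genes and their snoRNAs often differed in direction. For 39 hosts with at least 100 counts on the host and on its C/D box snoRNAs, the snoRNA log2 ratio exceeded that of the host in 38 with acetaminophen, in 34 with caffeine and in 37 with arsenic at 5 µM, each against control, and was below it in 37 when acetaminophen was added to caffeine. The 2 ratios had the same sign in 17, 15, 17 and 23 of the 39 hosts in those pairs, in that order. In the other pairs they had the same sign in 16 to 26. With acetaminophen the medians were 1.88 for the snoRNAs and -0.11 for the hosts. The 7 ribosomal protein hosts had medians of 1.82 and -2.39, with 7 of 7 snoRNA ratios and 0 of 7 host ratios above 0. RPS12, a small subunit protein and host of SNORD100 and SNORD101, was at 877 CPM in the control, 54.9 with acetaminophen, 190 with caffeine and 41.4 with arsenic at 5 µM, whereas its snoRNAs together were at 1869, 5869, 6487 and 7341 CPM. RPS3, host of SNORD15B, was at 987, 267, 487 and 154 CPM in the same 4 libraries. With arsenic at 5 µM the 2 exceptions were long noncoding hosts. SNHG25, host of SNORD104, was at 157 CPM in the control and 4221 with arsenic at 5 µM, and SNHG12, host of SNORD99, at 679 and 7517 CPM in those libraries. The exceptions in the other pairs were SNX5 with acetaminophen, SNX5, RPL3, RNF149, SNHG12 and SNHG25 with caffeine, and SNX5 and RPS3 when acetaminophen was added to caffeine. Pairs with the same control library share it, so their host counts are not independent of each other.

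**Figure D4:**
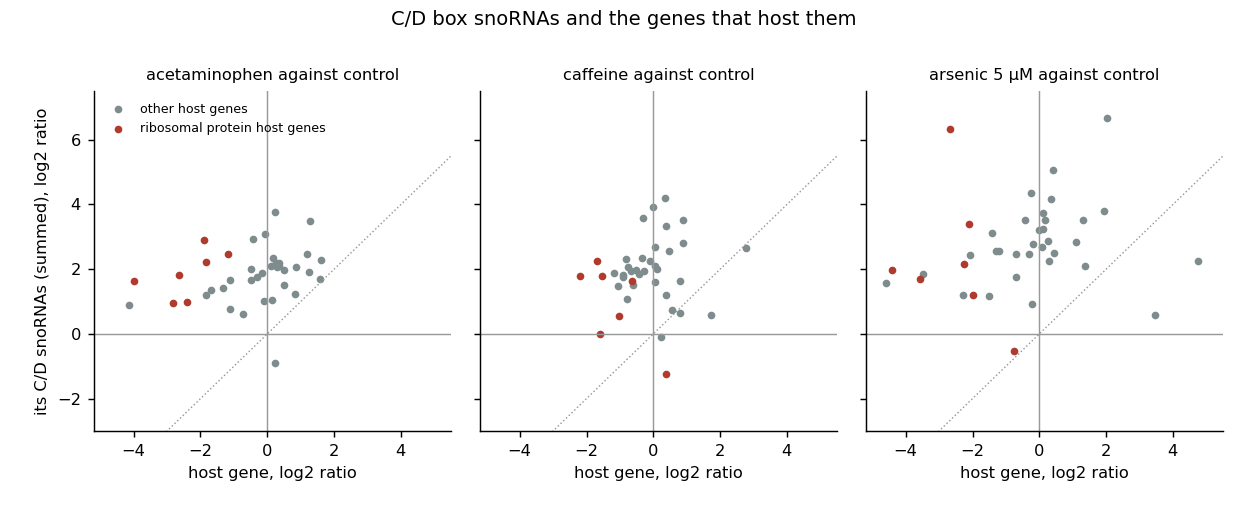
Log2 ratio to control of the summed C/D box snoRNAs of each host gene (vertical) against that of the host gene (horizontal), 1 point per host for 39 hosts, with the 7 ribosomal protein hosts in red; the dotted line marks equal change. In the acetaminophen panel 38 of 39 points lie above the line, and all 7 ribosomal protein hosts lie left of 0 and above 0.

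Most genes for proteins of the particle were not higher in RNA level where the snoRNAs were. Only RNA was measured, so the levels below are of messenger RNA and not of protein. Fibrillarin, the methyltransferase, was at 194 CPM in the control, 21.1 with acetaminophen, 189 with exosomes, 101 with acetaminophen and exosomes, 85.9 with caffeine, 83.5 with acetaminophen and caffeine, 23.0 with arsenic at 5 µM, 71.2 with arsenic at 15 µM and 87.7 with arsenic and copper. It was lowest in 2 of the libraries with the largest snoRNA shares. Of 14 core and assembly proteins found by symbol, 3 were higher (RPAP3, TGS1 and ZNHIT6) and 6 lower (among them FBL, NOP56 and SNU13) with acetaminophen by the rule for library pairs (12.7% and 11.8% of all genes). The same 3 were higher and 7 lower with arsenic at 5 µM (16.1% and 14.4%), and 0 were higher and 3 lower with caffeine (11.7% and 7.83%). edgeR called 0 of 14 in each of the 4 terms (smallest adjusted p = 0.613).

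Genes near the count minimum and outside it complete the set. The totals just inside were 13 (SNORD42B), 14 (SNORD3H), 16 (SNORD31B) and 20 (SNORD62A), and just outside 9 (SNORD3J) and 8 (SNORD13E). SNORD42B would have been left out without the caffeine library and SNORD3H without the exosome library, and no other gene depended on 1 library for its place. The 76 identifiers of the imprinted cluster on chromosome 15 (SNORD115, SNORD116 and neighbours) had 5 counts in all and the 39 of that on chromosome 14 (SNORD113 and SNORD114) had 23, with 0 genes reaching 10 counts. Exons of another gene on the same strand overlapped 14 of the 69 genes (20.3%), SNORD7, SNORD8 and SNORD89 among them, and 54 of the 96 genes under 10 counts outside the imprinted clusters (56.2%). No source used here gives the strand setting of the counting, and values of genes that overlap others are uncertain.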

How the data were processed

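Ribosomal RNA-depleted total RNA of 9 HuH-7 cultures was sequenced on an Ion Torrent Proton, per the labels' protocols. The deposited values are raw counts of reads on Ensembl genes, with TopHat2 2.0.13, HTSeq 0.6.1 and GRCh37 named in the submitters' processing notes. Summary lines of the counter (42.3% to 70.3% of reads) were left out. Symbols came from a gene name table or, where it had none, from GENCODE 29, for 52526 of 63677 identifiers. All 69 members were named by the table. GENCODE 29 (GRCh38) also gave lengths, hosts and sequences by gene identifier, and no coordinates are given here. The members, lists, naming rule and alternatives were chosen with earlier results of these data known.

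The 18237 genes that reached 1 CPM in 2 or more libraries were fitted with edgeR 4.0.16 (TMM, 5 coefficients, common dispersion 0.283) in R 4.3.3, with DESeq2 1.42.0 as an alternative. Library pairs (10) used Python 3.11.15 and scipy 1.17.1. A gene at 3 counts lies at 0.352 to 3.83 CPM by library. Named genes were the 15 with the highest mean level, the 3 highest and 3 lowest per pair by the interval bound nearest to 1, the 3 smallest p per term, the list members and host groups; others were chosen after their values were seen. The scripts were tested on simulated data. Alternatives were 3 other scalings, no count filter, a minimum of 100 counts, DESeq2, each library left out and the 6 libraries without arsenic. Some sequences and a host gene are not reported here.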

Additional observations from a re-analysis of the deposited data

Results flagged for a closer look

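The acetaminophen response of the C/D box snoRNAs differed with caffeine present. The median log2 ratio for acetaminophen against control exceeded that for acetaminophen with caffeine against caffeine by 3.85, and the difference of these medians was not tested. The same difference was 2.53 for SNORD13, 3.57 for SNORD100, 4.58 for SNORD104 and 4.13 for SNORD83A. It was 4.16 for SNORD12B, 8.86 for SNORD7 and 4.74 for SNORD92. Each was higher without caffeine and lower with it, in 1 library pair each. These genes were picked for that pattern from those with the highest mean level. By the rule for library pairs, 40 of the 69 genes had the pattern and 0 the reverse. SNORD3A and SNORD17, also of high mean level, leaned the other way. Their log2 ratios were -0.16 and -0.91 for acetaminophen against control, short of the rule. For acetaminophen with caffeine against caffeine they were 2.08 and 1.41. Gene by gene, the acetaminophen by caffeine term of the edgeR fit called 0 of 68.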

How the results depend on the processing

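Of 80 counts of genes higher or lower under other scalings or a minimum of 100 counts, 70 stayed within 1.5 times. With DESeq2 size factors, the lower genes for acetaminophen became 2 (2434 of all 18795 genes) and the higher genes for acetaminophen with exosomes 5 (1180). The latter were also 5 by total gene counts (1122). The lower genes for exosomes became 4 with DESeq2 size factors (450 of all genes) and 3 with TMM from protein-coding genes (350). The higher genes for arsenic with copper against control became 2 in all 3 scalings. Over all genes these counts were 1299 with DESeq2 size factors, 1465 by total gene counts and 1467 with TMM from protein-coding genes. The lower genes for caffeine became 3 at a minimum of 100 counts (997 of 12037 genes). Those for arsenic at 5 µM against control became 1 by total gene counts (4873 of all genes). Of 519 named ratios under other settings, 0 reversed, 9 fell under the rule and 6 passed it. For the edgeR terms, the 6 libraries without arsenic gave 1 call for exosomes (0.0165% of all genes called) and 1 for caffeine (1.51%). The arsenic term had 2 calls without a count filter (0.727% of all genes called) and 1 with DESeq2 (0.932%). Leaving out 1 library at a time gave 0 to 0 calls for acetaminophen, 0 to 1 for exosomes, 0 to 1 for caffeine, 0 to 20 for arsenic and 0 to 49 for the arsenic 15 µM term, which had 4 with DESeq2 size factors and 4 with DESeq2 (alternatives added after seeing the data). The cause was not tested. No paired analysis was possible because each condition had 1 library and the labels carry no replicate numbers. Counting error limits genes under 100 counts, 10 of the 69.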
